A study of Mus musculus with 3 samples.

Results

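Naive epiblast-like barcodes are the droplets of a mouse blastoid data set whose RNA looked like that of the early, naive epiblast, the pluripotent founder tissue of the embryo proper. They were chosen on their own expression values. A barcode needed at least 10000 UMIs (unique molecular identifiers, each counting 1 captured RNA molecule) and at most 20% of them from mitochondrial genes. It also needed at least 150 CPM (counts per 1000000 UMIs of the barcode or sum) of Pou5f1, the core pluripotency factor also called Oct4. Limits on other lineages were under 100 CPM of Gata6, Sox17 and Gata4 together, under 1000 CPM of Ttr, Rbp4, Apoa1 and Apoa2 together, and under 800 CPM of Krt8, Krt18 and Krt19 together. Last, the UMIs of Klf2, Zfp42 and Nanog together had to outnumber those of Otx2, Pou3f1 and Fgf5. In all, 902 of 3669 deep barcodes were members, out of 18388 barcodes deposited. They made up 305 of 1405 deep barcodes in Type I (21.7%, exact binomial 95% interval 19.6 to 24.0), 485 of 1992 in Type II (24.3%, 22.5 to 26.3) and 112 of 272 in Type III (41.2%, 35.3 to 47.3).

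The blastoids are embryo-like structures grown from E14 mouse embryonic stem cells termed NrESC, for activation of Nr1h2, the gene of a liver X receptor (LXR). All 3 libraries share every treatment in the labels. The stem cells were kept on gelatin in serum medium with 10 µM T0901317, an LXR agonist, and 1000 U/mL LIF. They were aggregated at 5 cells per microwell and seeded for 24 h with 12.5 ng/mL FGF4, 0.5 µg/mL heparin, 3 µM CHIR99021 (a GSK3 inhibitor that activates WNT signalling) and 2 µM Y-27632 (a ROCK inhibitor). They were then grown with FGF4, heparin, CHIR99021, 5 ng/mL BMP4 and 0.5 µM A83-01, an inhibitor of the NODAL and activin receptors, and were picked by hand on day 5. Digestion took 30 min for all 3 libraries. Each library is 1 of 3 blastoid types, Type I, Type II and Type III. The labels used here do not say what sets the types apart, and no group without T0901317 is among the samples, so effects of the agonist cannot be told apart from the rest of the culture.

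Naive pluripotency is the state of the pre-implantation mouse epiblast and of embryonic stem cells held with LIF. It is kept by a circuit of transcription factors, among them Nanog, Klf2, Klf4, Esrrb, Tfcp2l1 and Tbx3, around the core of Pou5f1 and Sox2. On the way to implantation this circuit is shut down, the epiblast passes through a formative into a primed state, FGF and ERK signalling rises in influence, Otx2 and Pou3f1 come on, and the de novo DNA methyltransferases are induced.

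Regulatory sequence upstream of 4 genes that turn up below is shown to ground the names in DNA. The core factors Pou5f1 and Sox2 bind elements built around the octamer ATGCAAAT, and the Kruppel-like factors Klf2, Klf4 and Klf5 bind GC-rich boxes of the kind GGGCGTGG. Both letter strings were searched on both strands in the 250 bases upstream of each RefSeq gene start (build GRCm38.p6). The octamer was present in 526 of 32851 promoters (1.60%) and the GC-rich box in 1575 (4.79%). Spp1 and Pim2, which differed between naive and primed barcodes in opposite directions, and Zfp42, a gene of the rule, carry the octamer. Tfcp2l1 carries the GC-rich box at 2 places. The 4 were chosen for display after their values and matches were seen. Of the 12 genes with the largest rises described below 10 had a promoter in the table, and 1 of them held the octamer. The same was true of the 12 largest falls, 1 of 10. The GC-rich box was held by 1 of 10 rises, Tfcp2l1, and by 1 of 10 falls, Arl4c. Each sequence runs 5′ to 3′ on the gene's strand and ends at the base before the start site, and capitals mark the matches.
Spp1 (chr5:104435972-104436191, plus strand): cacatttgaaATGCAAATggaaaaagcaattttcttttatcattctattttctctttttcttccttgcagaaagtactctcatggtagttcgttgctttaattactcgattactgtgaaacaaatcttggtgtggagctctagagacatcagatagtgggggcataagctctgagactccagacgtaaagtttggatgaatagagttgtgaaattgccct
Zfp42 (chr8:43307010-43307229, minus strand): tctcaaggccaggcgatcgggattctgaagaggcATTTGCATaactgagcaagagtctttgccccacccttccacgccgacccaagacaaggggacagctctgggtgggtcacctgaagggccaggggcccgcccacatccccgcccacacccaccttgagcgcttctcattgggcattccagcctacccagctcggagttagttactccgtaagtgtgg
Pim2 (chrX:7878086-7878305, plus strand): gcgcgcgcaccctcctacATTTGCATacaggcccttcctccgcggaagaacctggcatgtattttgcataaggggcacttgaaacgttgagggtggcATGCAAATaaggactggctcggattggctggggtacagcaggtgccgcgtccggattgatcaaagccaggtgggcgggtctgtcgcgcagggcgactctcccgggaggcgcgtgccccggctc
Tfcp2l1 (chr1:118627825-118627944, plus strand): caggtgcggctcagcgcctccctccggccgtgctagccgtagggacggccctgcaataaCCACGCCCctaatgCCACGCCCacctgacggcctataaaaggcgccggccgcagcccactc
The match starts 210 bases upstream in Spp1 and 186 in Zfp42, there on the opposite strand. Pim2 has matches at 202 (opposite strand) and 123 bases, and Tfcp2l1 at 61 and 47 bases, both on the opposite strand. These are matches of letters, not measured binding sites.

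The libraries held 6813, 9265 and 2310 barcodes for Type I, Type II and Type III, with 90126648, 106445641 and 25443474 UMIs, of which deep barcodes held 82.2% to 86.9%. The median member had 57747, 46550 and 61663 UMIs in the order Type I, Type II, Type III, which is the order of every group of 3 values below, and 3.64%, 4.07% and 4.33% mitochondrial UMIs. Some barcode sequences occurred in more than 1 library: 155 in Type I and Type II, 209 in Type I and Type III, and 151 in Type II and Type III. Nearly all of them were deep in at most 1 library, since 1 pair was deep in both. Members with such a barcode numbered 2 of 305, 4 of 485 and 58 of 112, so the Type III members rest on them far more than the others. Without these barcodes the summed UMIs of the Type III members fell from 6838950 to 1663915. Without shared barcodes the naive share of deep barcodes was 22.5%, 24.5% and 48.6% (54 of 111), and for some of the values below the Type III level without them is given too.

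The genes that chose the members are described first and were not tested. Summed over members, Pou5f1 stood at 425, 377 and 539 CPM. Klf2, a Kruppel-like factor of the naive circuit, stood at 350, 394 and 431 CPM, Zfp42 (Rex1), a classic naive marker, at 513, 503 and 692 CPM, and Nanog at 146, 153 and 214 CPM. All 4 were highest in the Type III sum. The genes on the other side of the division were present at low levels, Otx2 at 49.8, 56.6 and 58.3 CPM and Pou3f1 at 13.9, 22.5 and 17.5 CPM. Gata6, the primitive endoderm factor, was near 0, at 1.40, 1.88 and 0.731 CPM.

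**Figure D1:**
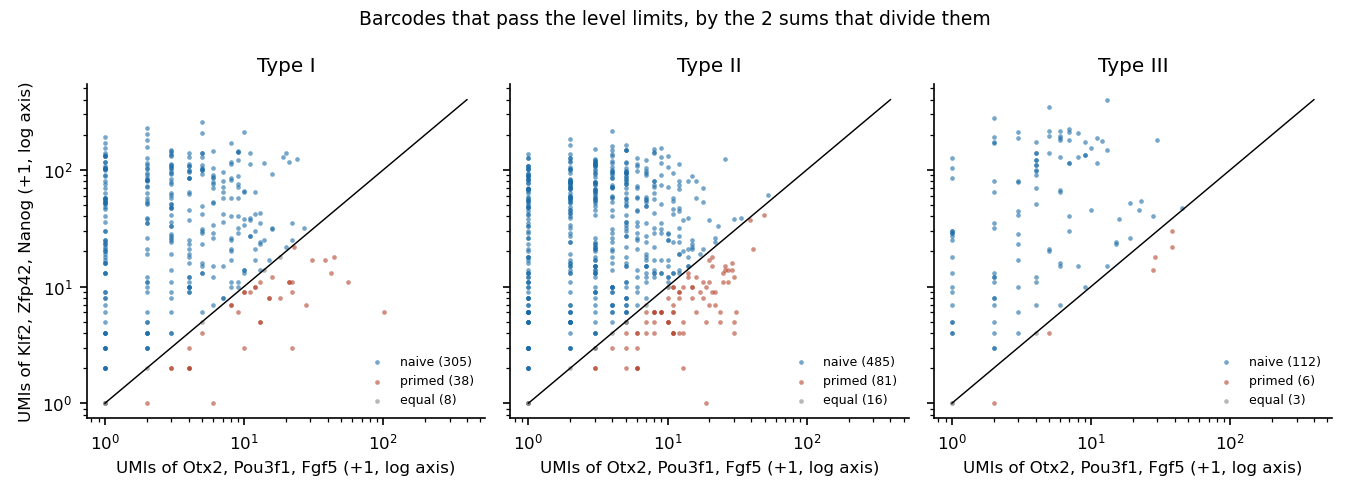
UMIs of Klf2, Zfp42 and Nanog together (vertical, log axis, 1 added) against UMIs of Otx2, Pou3f1 and Fgf5 together (horizontal, log axis, 1 added) for the 351, 582 and 121 barcodes that pass the level limits in the 3 libraries, where each point is a barcode and the line marks equality. The 305, 485 and 112 naive members lie above the line and most lie far from it, while some sit close to it.

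The division was wide for most members and narrow for some. By more than 10 UMIs it was cleared by 230, 342 and 79 members, and by only 1 or 2 UMIs by 27, 40 and 8. No UMI of Otx2, Pou3f1 or Fgf5 was seen in 76, 102 and 18 members, and 8, 16 and 3 barcodes had equal sums and belong to neither side. Just inside the Pou5f1 limit, between 150 and 200 CPM, lay 15, 40 and 6 members, and just outside, between 100 and 150 CPM with all other conditions met, lay 13, 41 and 2 barcodes. The keratin limit was less populated, with 1, 3 and 1 members between 700 and 800 CPM and 1, 2 and 0 barcodes between 800 and 900 CPM. The Gata limit had 2, 2 and 1 members at 80 to 100 CPM and 0, 2 and 0 barcodes at 100 to 120 CPM.

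Markers that the rule did not use were present as the label implies, with exceptions. To compare shares of barcodes at equal depth, every deep barcode was thinned to 10000 UMIs. After thinning, a UMI of Sox2, the partner of Pou5f1, was seen in 70.8%, 66.4% and 74.1% of members (before thinning in 90.8%, 88.2% and 88.4%). In Gata-positive barcodes, which should lack it and whose median depth was 51420, 39194 and 83757.5 UMIs before thinning, the share was 1.76%, 4.52% and 3.57%. Esrrb, an orphan nuclear receptor of the naive circuit, was seen in 24.3%, 19.8% and 25.9% of members (unthinned 59.0%, 53.4% and 60.7%) against 0.441%, 1.61% and 0% in Gata-positive barcodes, where 0 of 28 allows a share of up to 10.7%. Fgf4, the ligand through which epiblast cells signal to primitive endoderm, was seen in 33.4%, 38.8% and 40.2% (unthinned 68.2%, 64.5% and 68.8%) against 0%, 0.968% and 0%. Tfcp2l1 was seen in 19.3%, 24.1% and 24.1% of members against 3.08%, 2.26% and 3.57%. These 4 genes set members far above the Gata-positive barcodes, which were chosen with under 150 CPM of Pou5f1. Klf4 and Tbx3, also naive factors, did not: a Klf4 UMI was seen in 23.3%, 23.7% and 25.0% of members and in 53.7%, 43.5% and 53.6% of Gata-positive barcodes, and a Tbx3 UMI in 28.2%, 27.6% and 32.1% against 47.6%, 46.8% and 57.1%. Dppa5a, an RNA-binding protein gene abundant in embryonic stem cells, was seen in 99.7%, 100% and 100% of members but also in over 73% of barcodes of every other class in every library, so its presence did not separate classes at this depth.

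The nearest class is the mirror of the rule: barcodes that passed the same level limits but had more UMIs of Otx2, Pou3f1 and Fgf5 than of Klf2, Zfp42 and Nanog. These primed epiblast-like barcodes numbered 38, 81 and 6. UMIs were summed per library and class and compared with edgeR's quasi-likelihood test with the library as a block. The 3 libraries, which are different types, stand in for replicates. With the block, p-values measure how far the difference between classes varies between libraries, not the spread of their levels. The 17 genes of the rule were left out. Both classes were divided by measured genes, so genes that vary with the 6 dividing genes across barcodes had to differ, and the counts below describe what goes with the division. Of 10709 genes tested, 837 (7.82%) were higher in naive barcodes and 741 (6.92%) lower at a Benjamini-Hochberg adjusted p under 0.05, and 303 and 188 of them by at least 2-fold. The split depends on scaling: with plain library totals in place of TMM factors, which moves all genes by 0.10 on the log2 scale, 601 were higher and 1221 lower. It also depends on 1 library, since without Type II, which holds 81 of the 125 primed barcodes, 243 were higher and 155 lower. When the classes were divided on a random portion of each barcode's UMIs and the values taken from the rest, 558 genes were higher and 451 lower. In that division the calls described below were kept for 15 of 15 naive regulators with a value and for 12 of 12 formative and primed genes.

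The naive regulators outside the rule were higher in naive barcodes without exception among those tested. Of the 17 listed regulators outside the rule 16 passed the filter on low counts, and all 16 were higher in naive barcodes by edgeR with Benjamini-Hochberg adjustment, with a median log2 difference of 1.88 against 0.00 for all genes tested (7.82% of genes were higher). Nr0b1 (Dax1), a nuclear receptor partner of Pou5f1 in stem cells, stood at 26.5, 38.4 and 51.5 CPM in naive and 1.34, 2.29 and 0 CPM in primed barcodes. The groups did not overlap, and the log2 difference was 4.41 ± 0.27 (SE, edgeR adjusted p = 6.66e-11). Nr5a2, a nuclear receptor that can drive Pou5f1, stood at 18.0, 18.7 and 27.5 CPM against 0.446, 1.02 and 0 CPM, a log2 difference of 4.77 ± 0.36. Zeros in the Type III primed sum rest on 6 barcodes. Tcl1, a co-activator of AKT, stood at 16.3, 19.6 and 20.8 CPM against 1.34, 0.763 and 0 CPM (log2 difference 4.46 ± 0.36). Nr0b1, Nr5a2 and Tcl1 were near 0 in primed sums and passed the filter on low counts through their naive sums. For these and other genes near 0 in primed sums a rise was close to set by the filter. The count of 16 is therefore a description only.

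Esrrb stood at 29.2, 25.1 and 36.1 CPM in naive and 3.12, 5.34 and 5.45 CPM in primed barcodes. Every naive sum was above every primed sum, and the log2 difference was 2.68 ± 0.22 (edgeR adjusted p = 7.34e-09). Tfcp2l1, a LIF and WNT effector whose promoter is printed above, stood at 22.2, 25.2 and 30.7 CPM against 2.67, 4.58 and 3.63 CPM (log2 2.78 ± 0.23). Klf4 stood at 38.3, 38.4 and 56.3 CPM against 17.8, 14.3 and 3.63 CPM (log2 1.58 ± 0.19, edgeR adjusted p = 2.19e-06), and Tbx3 at 50.6, 44.6 and 45.0 CPM against 13.4, 8.14 and 19.99 CPM (log2 2.16 ± 0.18). The smallest change of the list, singled out after its values were seen, was in Dppa4, a chromatin-associated stem cell factor, with 84.1, 85.3 and 79.5 CPM against 61.5, 52.7 and 79.96 CPM. There the groups overlapped in Type III (log2 0.58 ± 0.12, edgeR adjusted p = 0.00107). DESeq2 kept 15 of the 16 and lost Klf4, and without Type II the calls for Prdm14 and Dppa4 were lost.

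**Figure D2:**
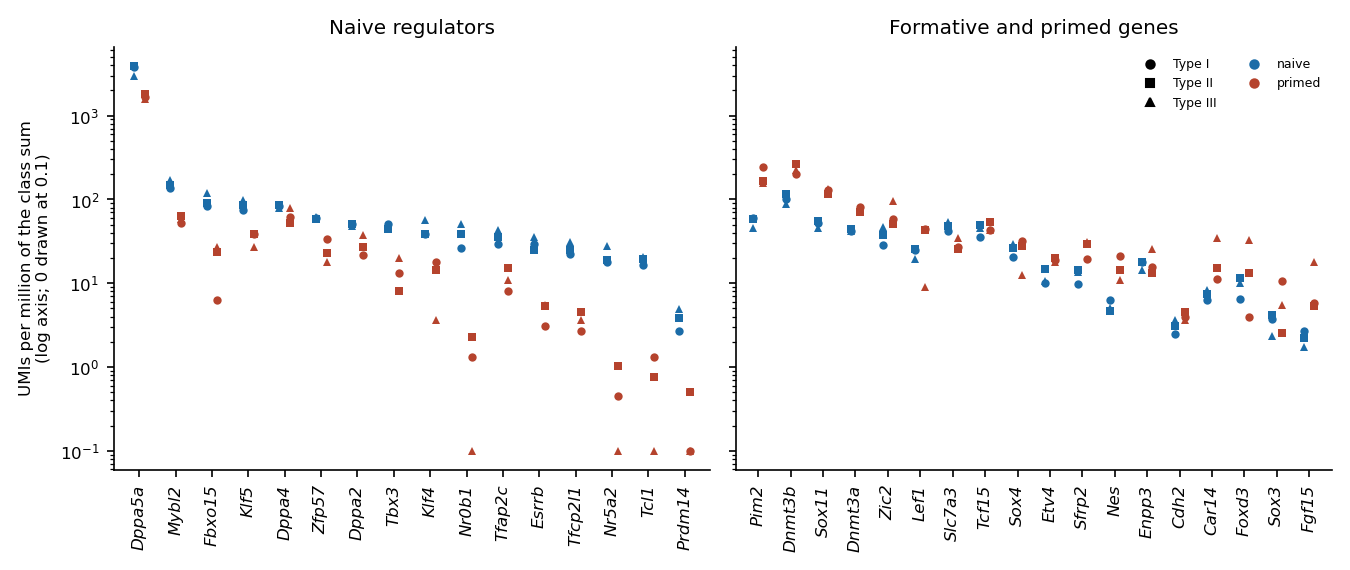
CPM of each class sum (log axis, 0 drawn at 0.1) for the 16 tested naive regulators and the 18 tested formative and primed genes, with 1 symbol shape per library, blue for naive and red for primed sums. The 16 regulators are higher in naive sums, with Dppa4 overlapping, while Pim2, Dnmt3b and Sox11 are lower in all 3 naive sums than in any primed sum.

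Core pluripotency genes split. Sox2 stood at 173, 193 and 216 CPM in naive and 55.3, 61.1 and 65.4 CPM in primed barcodes. The groups were far apart, with a log2 difference of 1.76 ± 0.09 (edgeR adjusted p = 7.11e-12). Lin28a, which encodes an RNA-binding protein that blocks maturation of a microRNA family, went the other way, at 117, 117 and 118 CPM against 207, 212 and 196 CPM, and fell by 0.72 ± 0.08 on the log2 scale. Its paralog Lin28b fell by 0.69 ± 0.16. Of 13 tested core genes 4 were higher and 2 lower (7.82% of all genes were higher and 6.92% lower), with a median log2 difference of -0.01. Without Type II 2 of these 6 calls remained, Sox2 and Lin28a. Fgf4 was not called, at 54.7, 61.0 and 61.7 CPM against 50.4, 43.8 and 67.2 CPM, which overlap (log2 0.34 ± 0.12, edgeR adjusted p = 0.0622).

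Formative and primed genes outside the rule were mostly lower in naive barcodes: 11 of 18 fell, 1 rose (6.92% of all genes fell), and the median log2 difference was -0.61. Pim2, a serine/threonine kinase gene whose promoter holds the octamer at 2 places, stood at 60.5, 58.7 and 46.1 CPM in naive and 247, 167 and 156 CPM in primed barcodes. No naive sum came near a primed sum, and it fell by 1.66 ± 0.10 on the log2 scale (edgeR adjusted p = 5.89e-11). Sox11, a factor of early neural and primed cells, stood at 52.1, 55.9 and 45.5 CPM against 131, 118 and 134 CPM (fell by 1.16 ± 0.10), and Dnmt3b, a de novo DNA methyltransferase, at 101, 115 and 87.3 CPM against 201, 264 and 225 CPM (fell by 1.06 ± 0.09, edgeR adjusted p = 6.33e-09). Nes, the neural progenitor filament nestin, fell by 1.52 ± 0.22 from a low level, 6.24, 4.66 and 5.12 CPM against 21.4, 14.3 and 10.9 CPM. The exception was Slc7a3, an arginine and lysine transporter, higher in naive barcodes (42.2, 48.5 and 54.2 CPM against 26.7, 25.7 and 34.5 CPM). The primed markers Sox3 (log2 -0.49 ± 0.39, edgeR adjusted p = 0.473) and Sox4 (-0.05 ± 0.17, adjusted p = 0.892) were not called. Without Type II 6 of the 12 calls of this list remained, and after thinning every barcode to 10000 UMIs 4 of the 10 that could be fitted.

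DNA methylation genes moved in both directions, 5 of 11 higher and 3 lower (7.82% of all genes were higher and 6.92% lower). Besides Dnmt3b, Dnmt3a stood at 41.9, 44.6 and 42.3 CPM in naive and 80.7, 71.5 and 74.5 CPM in primed barcodes, and fell by 0.71 ± 0.11 (edgeR adjusted p = 5.81e-05). Tet2, which oxidises methylcytosine, stood at 21.9, 22.6 and 25.2 CPM against 4.90, 4.58 and 1.82 CPM (log2 2.44 ± 0.23, edgeR adjusted p = 4.64e-08), and Tet1 at 116, 128 and 139 CPM against 75.8, 66.2 and 99.9 CPM (log2 0.84 ± 0.10). Dnmt3l, a catalytically inactive cofactor of the methyltransferases, stood at 82.4, 94.8 and 93.7 CPM against 40.1, 38.7 and 41.8 CPM (log2 1.28 ± 0.11), and Zfp57, which protects imprinted methylation, rose by the same amount. So in naive barcodes Tet1, Tet2 and the cofactor were higher while Dnmt3a and Dnmt3b were lower. Of the 8 calls of this list 7 remained without Type I and also without Type II.

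Germline and oocyte-related genes were also higher, 8 of 13, with 1 lower (7.82% of all genes were higher and 6.92% lower) and a median log2 difference of 1.05. Dppa3 (Stella), a maternal factor that counters DNA methylation, stood at 202, 196 and 216 CPM in naive and 39.7, 67.7 and 60.0 CPM in primed barcodes. The lowest naive sum was well above the highest primed sum (log2 1.95 ± 0.12, edgeR adjusted p = 6.66e-11). Ooep, of the oocyte subcortical maternal complex, stood at 71.8, 73.1 and 58.6 CPM against 16.5, 15.0 and 16.4 CPM (log2 2.28 ± 0.14). Tdh, threonine dehydrogenase, on which mouse stem cells rely, stood at 239, 289 and 300.5 CPM against 53.03, 116 and 111 CPM (log2 1.71 ± 0.12). Khdc3, another gene of the maternal complex, stood at 5.19, 7.62 and 8.19 CPM against 0.446, 0.254 and 1.82 CPM (log2 3.98 ± 0.55). Primordial germ cell markers, 8 of whose 10 genes are in other lists, were higher for 7 of 10. The synaptonemal gene Sycp3 was the lower member (fell by 0.57 ± 0.16, edgeR adjusted p = 0.0167), a call lost in DESeq2. Without Type I 5 of the 9 calls of the germline list remained, and without Type II 2 of the 7 calls of the germ cell markers. Genes of the 2-cell-like state, such as Zscan4c, were too low to test, and their 12 measured members summed to 1.11, 1.30 and 3.66 CPM in naive barcodes (11.4 CPM in Type III without shared barcodes).

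Signalling lists are to be read against the 7.82% of all genes that were higher and the 6.92% that were lower. Of 13 FGF and ERK target genes 5 were lower in naive barcodes and none higher, with a median log2 difference of -0.31. Dusp6 and Dusp4, phosphatases induced by ERK, both fell by 0.97 on the log2 scale (± 0.13 and ± 0.11, edgeR adjusted p = 7.06e-06 and 9.96e-07). Dusp6 stood at 23.4, 24.5 and 25.2 CPM against 55.3, 50.1 and 41.8 CPM, without overlap. Of the others, Egr1, Etv4 and Spred1 lost their calls without Type I and also without Type II, and after thinning the differences of Etv4 and Spred1 were 0.20 and 0.01. Among NODAL genes 3 of 14 were lower and 1 higher, the latter share near that of all genes. Nodal itself stood at 56.7, 69.6 and 53.5 CPM against 92.2, 109 and 184 CPM and fell by 0.82 ± 0.14 (edgeR adjusted p = 0.000182), while Gdf3, another ligand of the family, rose by 0.70 ± 0.12. Among WNT targets 2 of 9 were higher and 5 lower. T (Brachyury) was the higher of the better-expressed ones, at 16.7, 13.2 and 14.6 CPM against 2.23, 10.7 and 1.82 CPM (log2 1.20 ± 0.30, edgeR adjusted p = 0.00815), but none of the 7 calls of this list remained without Type I, and the BMP, NODAL and LIF lists also lost calls without Type I or Type II. In the BMP list 1 of 10 was higher, Bmp4, and 1 lower, Bmpr2, shares near those of all genes. Bmp4 stood at 21.5, 24.3 and 39.0 CPM against 7.13, 3.82 and 1.82 CPM (log2 2.46 ± 0.25). In the LIF and STAT3 list 3 of 10 were higher, among them both receptor chains, Lifr (0.70 ± 0.22, edgeR adjusted p = 0.0324) and Il6st (0.93 ± 0.25, adjusted p = 0.0112), the latter with overlapping groups, and neither call remained without Type I or without Type II. The other was Spp1 (osteopontin), whose promoter is printed above, at 42.9, 47.1 and 79.1 CPM against 1.34, 3.31 and 10.9 CPM (log2 3.97 ± 0.23, edgeR adjusted p = 2.69e-11).

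The largest changes by rank took in genes outside the lists. Mylpf, a fast skeletal muscle myosin light chain gene, had the largest rise, at 78.5, 55.7 and 48.0 CPM in naive and 1.78, 2.80 and 1.82 CPM in primed barcodes. Its primed sums were low in all 3 libraries (log2 4.81 ± 0.23, edgeR adjusted p = 1.33e-12). Cobl, an actin nucleator gene, stood at 21.7, 25.0 and 25.2 CPM against 1.34, 1.53 and 0 CPM (log2 4.25 ± 0.30), and Fbxo15, a Pou5f1 target once used as a reporter of reprogramming, at 84.4, 91.7 and 119 CPM against 6.24, 23.7 and 27.3 CPM (log2 2.49 ± 0.18). Manba, a lysosomal mannosidase gene, Sept1, a septin gene, and Epha4, an ephrin receptor gene, rose by 3.42, 3.07 and 2.63 on the log2 scale. The largest fall was in Car4, a membrane-anchored carbonic anhydrase gene, at 43.3, 47.9 and 38.7 CPM against 268, 180 and 167 CPM, with a log2 difference of -2.13 ± 0.11 (edgeR adjusted p = 6.19e-12). Arl4c, a small GTPase gene, stood at 37.0, 38.8 and 43.1 CPM against 111, 111 and 102 CPM, and Fst, which encodes the activin antagonist follistatin, at 32.0, 36.6 and 27.9 CPM against 66.0, 107 and 96.3 CPM. Both fell without overlap, by 1.40 ± 0.10 and 1.32 ± 0.12. Zfp467, Setd7, Ppp4r4, Prtg, Kif21a, Hip1, Cbr3 and Zfp36l2 complete the 12 falls, between -1.28 for Zfp36l2 and -1.78 for Zfp467. All 24 ranked genes kept their call under every alternative, except that Kif21a lost it after thinning. Mylpf, Cobl, Manba and other rises near 0 in primed sums passed the filter on low counts through their naive sums. For them a rise was close to set by the filter, so their rank and kept calls are a description only.

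Of the metabolic lists, most oxidative phosphorylation and glycolysis genes were not called, 11 of 20 and 10 of 18. In oxidative phosphorylation 9 of 20 were higher and none lower (7.82% of all genes were higher and 6.92% lower), with a median log2 difference of 0.20. Cox5a, a subunit of cytochrome c oxidase, stood at 545, 560 and 523 CPM in naive and 409, 406 and 313 CPM in primed barcodes (log2 0.61 ± 0.07, edgeR adjusted p = 1.13e-06), and Uqcrb, of complex III, at 410, 383 and 377 CPM against 320, 302 and 256 CPM. Both were without overlap, but 3 of the 9 calls remained without Type II and 3 without shared barcodes. In glycolysis 2 of 18 were higher, near the share of all genes, and 6 lower. The glucose importer gene Slc2a1 stood at 125, 181 and 231 CPM against 305, 290 and 389 CPM and fell by 0.81 ± 0.09 (edgeR adjusted p = 8.67e-07). Each library's primed sum was above its naive sum, and the lactate exporter gene Slc16a3 fell by 0.83 ± 0.10. Pfkp and Ldhb, isoform genes of phosphofructokinase and lactate dehydrogenase, rose by 0.93 ± 0.12 and 0.88 ± 0.10. These 4 calls remained without each library in turn, and the other 4 (Hk2, Ldha, Eno1 and Pgk1) were lost without Type I and also without Type II. None of 11 hypoxia genes was called by edgeR or DESeq2, and 2 had an unadjusted edgeR p under 0.05. Mitochondrial UMIs were 3.88%, 4.23% and 4.55% of the naive sums and 3.60%, 4.03% and 4.17% of the primed sums.

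For LXR and its targets no gene of 12 was higher and 3 were lower, the fatty acid genes Scd1, Scd2 and Lpl (7.82% of all genes were higher and 6.92% lower). Scd2, a stearoyl-CoA desaturase gene, stood at 96.4, 97.5 and 75.2 CPM in naive and 152, 175 and 176 CPM in primed barcodes and fell by 0.75 ± 0.10 (edgeR adjusted p = 6.17e-06). Nr1h2 itself stood at 20.7, 23.5 and 25.3 CPM against 23.2, 22.9 and 21.8 CPM, which overlap (log2 0.09 ± 0.15, edgeR adjusted p = 0.775). Of 23 cholesterol genes 5 were lower and none higher, led by Cyp51 (fell by 0.67 ± 0.13). Without Type II 1 of these 5 calls remained, Cyp51.

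Imprinted genes were lower or not called, 11 of 24 lower and none higher (6.92% of all genes were lower and 7.82% higher), with a median log2 difference of -0.39. Meg3, a maternally expressed long noncoding RNA, stood at 371, 282 and 232 CPM in naive and 575, 508 and 514 CPM in primed barcodes. The groups did not overlap, and it fell by 0.75 ± 0.08 (edgeR adjusted p = 4.08e-07). Rian, transcribed from the same imprinted cluster, stood at 101, 71.2 and 67.0 CPM against 168, 133 and 124 CPM, and Snrpn, a paternally expressed splicing gene, at 238, 242 and 238 CPM against 364, 406 and 445 CPM. They fell by 0.73 ± 0.09 and 0.64 ± 0.07. Without Type II 4 of the 11 calls remained, and DESeq2 made 6 of them.

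Immediate early genes, which also mark handling of cells during dissociation, were lower for 8 of 18 and higher for 2. The counts in this paragraph stand beside 6.92% of all genes lower and 7.82% higher. Zfp36, Myc and Atf3 fell by 1.22 ± 0.25, 1.18 ± 0.22 and 1.14 ± 0.24 on the log2 scale, with edgeR adjusted p = 0.00154, 0.000422 and 0.00162. Without Type I, and also without Type II, 1 of the 10 calls remained. Of 20 cytosolic ribosomal protein genes 14 were higher and none was lower, and the median log2 difference over all 20 was 0.18. No call of that list remained without shared barcodes, and many such genes have near-identical copies that can share reads. Cell cycle genes gave no common direction, with 3 higher and 3 lower of 21 S phase genes (none of these 6 calls remained without Type II) and none called of 20 genes of the G2 and M phases by edgeR or DESeq2, of which 0 had an unadjusted edgeR p under 0.05.

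**Figure D3:**
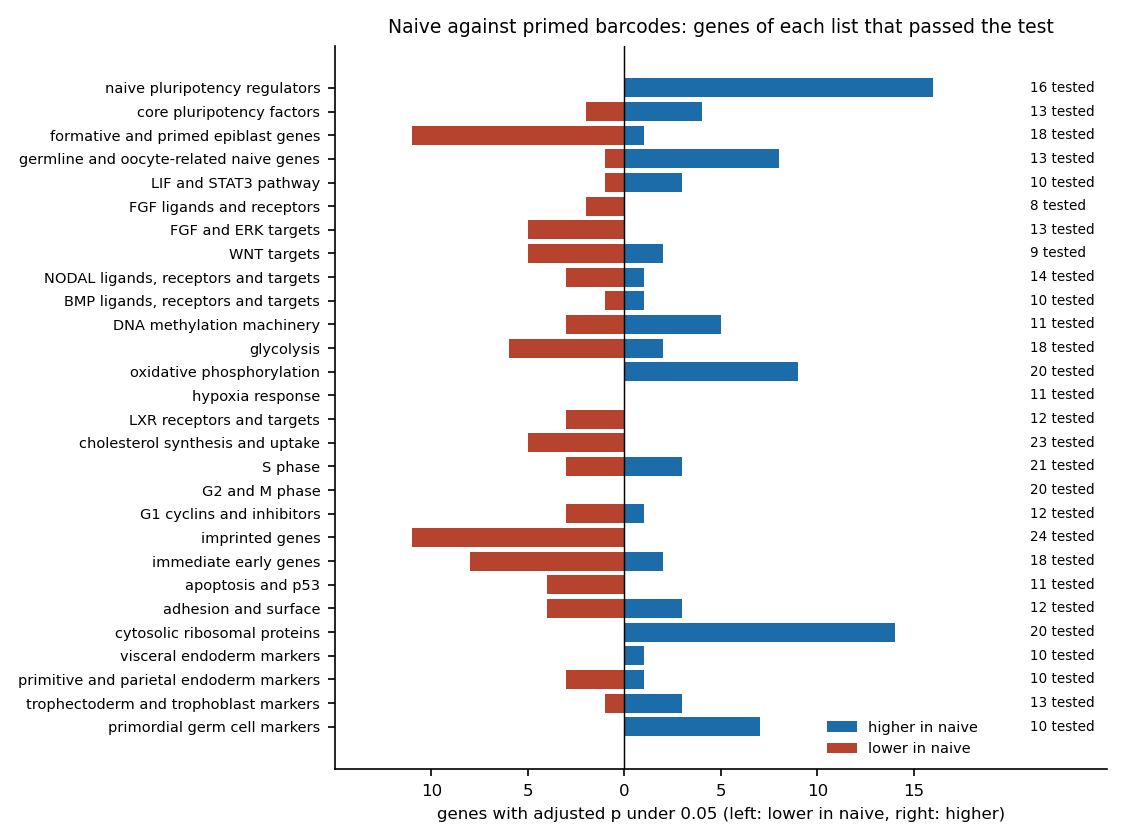
Number of genes of each list with 8 or more tested genes that passed the edgeR test (Benjamini-Hochberg adjusted p under 0.05) between naive and primed barcodes, drawn to the right where higher in naive and to the left where lower, with the number tested at the margin. Naive regulators (16 of 16 higher), ribosomal protein genes (14 of 20 higher), formative and primed genes (11 of 18 lower) and imprinted genes (11 of 24 lower) have the longest bars.

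Adhesion and surface genes divided too, 3 of 12 higher and 4 lower. The counts in this paragraph stand beside 7.82% of all genes higher and 6.92% lower. Pecam1, an endothelial antigen that is also a known surface marker of naive stem cells, stood at 14.6, 11.8 and 14.2 CPM in naive and 2.23, 3.56 and 5.45 CPM in primed barcodes (log2 2.08 ± 0.29, edgeR adjusted p = 1.34e-05). Cd9, a tetraspanin gene, stood at 173, 187 and 231 CPM against 93.6, 101 and 92.7 CPM (log2 1.06 ± 0.09), and Prom1, the gene of a stem cell surface glycoprotein, fell by 1.13 ± 0.19. Without Type II 2 of these 7 calls remained, Pecam1 and Cd9. Markers of other lineages were low in both classes, which passed the same limits on Gata, carrier and keratin genes. Among trophectoderm markers 3 of 13 were higher in naive barcodes, Lgals3 (17.9, 20.6 and 38.0 CPM against 0.891, 3.82 and 1.82 CPM), Tead4 and Tfap2a, and Eomes was lower. The whole trophoblast list summed to 172, 155 and 226 CPM in naive and 164, 166 and 198 CPM in primed barcodes. Primitive and parietal endoderm markers summed to 196, 207 and 132 CPM (108 CPM in Type III without shared barcodes) against 258, 317 and 219.9 CPM, and 3 of 10 tested were lower, Fst, Lrp2 and Lamb1, while Htra1 was higher. Their part in the results above was not tested.

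Against the 2 clearly different classes the naive members were set only to place them. Both classes were chosen by levels of genes that the rule also limits, so genes that vary with those genes had to differ. The counts and p-values of these 2 comparisons describe what goes with that choice. Gata-positive barcodes (227, 310 and 28) had at least 100 CPM of Gata6, Sox17 and Gata4 together and under 150 CPM of Pou5f1. They were also held under 1000 CPM of Ttr, Rbp4, Apoa1 and Apoa2 together, so they are the part of the Gata-positive endoderm with low levels of these carrier genes. Of 12686 genes 4377 (34.5%) were higher and 4435 (35%) lower in naive barcodes by edgeR with Benjamini-Hochberg adjustment, so counts in lists stand against a background in which most genes differed. Fgf4 had the largest rise, at 54.7, 61.0 and 61.7 CPM in naive and 0.548, 0.532 and 0 CPM in Gata-positive barcodes (log2 7.07 ± 0.20, edgeR adjusted p = 2.43e-08). Dppa3 stood at 2.58, 3.50 and 6.10 CPM there and Sox2 at 2.35, 5.47 and 4.07 CPM, far below the naive values given above. On the other side Srgn, a proteoglycan gene of parietal endoderm, stood at 4.96, 9.10 and 3.07 CPM in naive and 733, 815 and 960 CPM in Gata-positive barcodes, and Cubn, an endocytic receptor gene of visceral endoderm, at 3.85, 9.82 and 2.92 CPM against 624, 728 and 889 CPM.

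Of 17 naive regulators 14 were higher than in Gata-positive barcodes and 3 were lower (34.5% of all genes were higher and 35% lower). The 3 were Klf4 (38.3, 38.4 and 56.3 CPM against 89.8, 75.2 and 82.3 CPM, log2 -0.76 ± 0.12, edgeR adjusted p = 0.000399), Klf5 (74.6, 84.9 and 99.6 CPM against 158, 182 and 170 CPM, -0.81 ± 0.08) and Tbx3 (-0.65 ± 0.09). For all 3 every naive sum was below every Gata-positive sum. Of 24 cholesterol genes 23 had less RNA in naive than in Gata-positive barcodes and none had more (35% of all genes were lower). The median log2 difference was -1.18. Against keratin-high barcodes 14 of 23 were lower and 2 higher (30.6% of all genes were lower and 31.2% higher). Insig1, a sterol sensor gene, stood at 35.0, 32.7 and 23.0 CPM against 161, 129 and 131 CPM, a fall of 2.01 ± 0.10. Apoe, a lipid carrier and LXR target gene, stood at 1098, 1155 and 1017 CPM against 4731, 4911 and 4094 CPM (log2 -1.88 ± 0.04, edgeR adjusted p = 8e-09), while Nr1h2 was higher in naive barcodes (log2 0.76 ± 0.10) with 20.7, 23.5 and 25.3 CPM against 13.9, 16.0 and 16.6 CPM. The FGF receptor genes Fgfr1 and Fgfr2, singled out after their values were seen, divided: Fgfr1 stood at 28.1, 27.0 and 25.9 CPM in naive against 5.79, 9.04 and 9.83 CPM in Gata-positive barcodes, and Fgfr2 at 1.87, 2.11 and 2.19 CPM against 15.3, 16.3 and 12.2 CPM. The first rose by 1.99 ± 0.16 and the other fell by 2.70 ± 0.17.

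Keratin-high barcodes (193, 249 and 62), with at least 800 CPM of Krt8, Krt18 and Krt19 together, under 150 CPM of Pou5f1, under 100 CPM of the Gata genes and under 1000 CPM of the carrier genes, are the trophectoderm side. Of 12352 genes 3860 (31.2%) were higher and 3782 (30.6%) lower in naive barcodes. This split moved with the scaling, to 2178 higher and 6108 lower with plain library totals, since TMM shifted all genes by 0.33 on the log2 scale. Trh, the thyrotropin-releasing hormone gene, had the largest rise, at 360, 418 and 459 CPM in naive and 2.07, 15.1 and 3.75 CPM in keratin-high barcodes (log2 6.14 ± 0.33, edgeR adjusted p = 1.62e-07). It was not called against primed barcodes, which had 301, 359 and 658 CPM. Gata2, a trophoblast factor, stood at 4.90, 3.81 and 5.70 CPM against 287, 264 and 389 CPM (log2 -5.68 ± 0.09). Of 17 regulators 14 were higher than in keratin-high barcodes, Klf5 was not called (log2 0.03 ± 0.08, edgeR adjusted p = 0.761), and Tfap2c and Tbx3 were lower. Tfap2c, an AP-2 factor used by naive cells, germ cells and trophoblast alike, stood at 29.1, 36.1 and 43.3 CPM in naive and 75.8, 82.5 and 107 CPM in keratin-high barcodes. All 13 tested germline genes were higher, and the imprinted RNA H19 was lower (72.2, 48.8 and 95.9 CPM against 1598, 1293 and 1455 CPM). Among BMP genes 9 of 13 were lower and none higher, with Msx2, a BMP target, at 3.85, 2.24 and 2.78 CPM against 102, 69.5 and 112 CPM. Of 18 immediate early genes 14 were lower, among them Klf6 (fell by 2.00 ± 0.07).

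RNA of other lineages was at trace level in the members. The rule held members low in Gata, carrier and keratin genes, so low levels of markers that go with these were largely set in advance. Gata-positive and keratin-high barcodes were chosen for high levels of Gata or keratin genes. The contrasts with them are a description only. The 16 visceral endoderm markers outside the rule summed to 218, 275 and 139 CPM against 7794, 6784 and 6755 CPM in Gata-positive barcodes. In the deep barcodes of no class, which include those with high carrier genes and made up 45.7%, 43.5% and 23.5% of deep barcodes, the sum was 12172, 10907 and 6939 CPM. The 18 trophoblast markers summed to 172, 155 and 226 CPM (174 CPM in Type III without shared barcodes) against 1482, 1831 and 2152 CPM in keratin-high barcodes. After thinning, 3 or more visceral endoderm markers were seen in 14.4%, 24.9% and 2.68% of members, compared with 96.0%, 93.2% and 75% of Gata-positive barcodes. The endoderm traces were lowest in Type III, and Gata-positive barcodes made up 16.2%, 15.6% and 10.3% of the deep barcodes. None of the 16 visceral endoderm or 18 trophoblast markers was at 0 in all members together. The part of these traces in the results was not tested.

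The same members were set against each other between types. With 1 library per type there is no replicate check, and a gene was counted past the size rule at a 2-fold ratio of CPM, with 10 CPM added, and at least 50 CPM in 1 of the 2 libraries. Between Type II and Type I 0 of 2268 genes (0%) passed it, between Type III and Type I 5 of 2317 (0.216%), and between Type III and Type II 6 of 2319 (0.259%). Within 1.25-fold lay 97.8%, 92.2% and 93.4% of the genes of these pairs. At 1.5-fold 2, 30 and 28 genes passed. Without shared barcodes 18 genes passed the 2-fold rule between Type III and Type I and 18 between Type III and Type II, with 54 Type III members left.

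**Figure D4:**
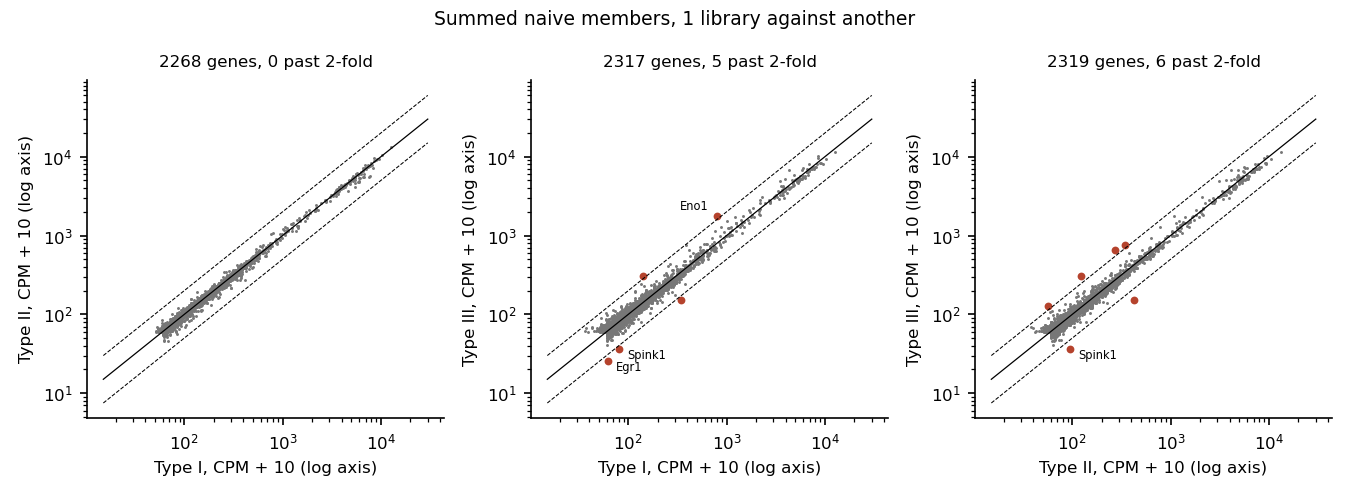
CPM plus 10 (log axes) of each gene in the summed naive members of 1 library against another for the 3 pairs, with the solid line at equality, dashed lines at 2-fold, and red points past 2-fold. In the pair of Type I and Type II no gene lies outside the dashed lines, and Eno1, Egr1 and Spink1 do so in the pair of Type I and Type III.

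Eno1, the glycolytic enolase gene, was the clearest difference, at 783 CPM in Type I (exact Poisson 95% interval 770 to 797), 1063 CPM in Type II (1049 to 1076) and 1763 CPM in Type III (1732 to 1795). These intervals cover counting error only. The log2 ratio of Type III over Type I was 1.16, and without shared barcodes the Type III level was 1656 CPM. Egr1, an immediate early gene and ERK target, was lowest in Type III, at 52.0, 37.3 and 15.8 CPM (12.6 CPM in Type III without shared barcodes), and so was Spink1, a visceral endoderm marker here, at 70.8, 85.1 and 26.5 CPM (33.7 CPM without). Others past 2-fold included Rpl29 and the unnamed transcripts Gm11808, Gm10076 and Gm8797, which as ribosomal or unnamed genes are uncertain. Eno1 was not alone in its pathway: the 18 measured glycolysis genes summed to 10388, 12447 and 14655 CPM (13943 CPM in Type III without shared barcodes). The median log2 ratio of Type III over Type I was 0.43 over the 16 of them with at least 50 CPM and 0.00 over all genes, and Gpi1, Pfkl, Pfkp and Slc2a1 joined Eno1 past 1.5-fold. The glycolysis sum rose in the same order in the other classes, so the order is not particular to the naive members. It was 12646, 13315 and 15550 CPM in primed and 11813, 12404 and 13789 CPM in Gata-positive barcodes. In keratin-high barcodes it was 11020, 13732 and 15232 CPM, and in deep barcodes of no class 11929, 12950 and 14546 CPM. Among the naive members cholesterol genes went the other way in Type III, with list sums of 1030, 1160 and 767 CPM (575 CPM in Type III without shared barcodes), and Fdps, Idi1, Cyp51, Hmgcs1 and Msmo1 were among those past 1.5-fold below Type II. The 20 naive regulators, of which 3 are genes of the rule, summed to 5540, 5708 and 5176 CPM. That sum includes Dppa5a, at a mean of 37.2, 37.1 and 28.1 UMIs per thinned member. Over the 10 listed regulators with at least 50 CPM the median log2 ratio was 0.16 for Type III over Type I. It was 0.13 for Type III over Type II, and 0 of the 10 passed 2-fold in either pair. In Type III the sum of all 20 was 4197 CPM without shared barcodes.

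Variation among members was measured gene by gene as the Fano factor, the variance of UMIs over their mean, in members thinned to 10000 UMIs. A gene with counting error alone has a value near 1. Among 1993 genes with at least 0.5 UMIs per member in every library the median was 1.19 and percentile 95 was 2.89. Mitochondrial, ribosomal protein and unnamed genes and genes of the rule were left out of the ranking, and some of them had higher values than genes named here. In what remained, the metallothionein gene Mt1, whose protein binds zinc and copper, was first and the nuclear RNA Malat1 next. For Mt1 the Fano factor was 47.4, 34.0 and 62.8, with a median of 23, 22 and 27 UMIs and a highest member of 403, 253 and 355. Mt1 and a second metallothionein gene, Mt2, went together across members of a library, with Spearman's rho of 0.81, 0.81 and 0.93 over 305, 485 and 112 members that share library and depth. Ftl1-ps1 is listed as a pseudogene and its level is uncertain, and Gpx4, Ptma and Apoe were also among the top 10.

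**Figure D5:**
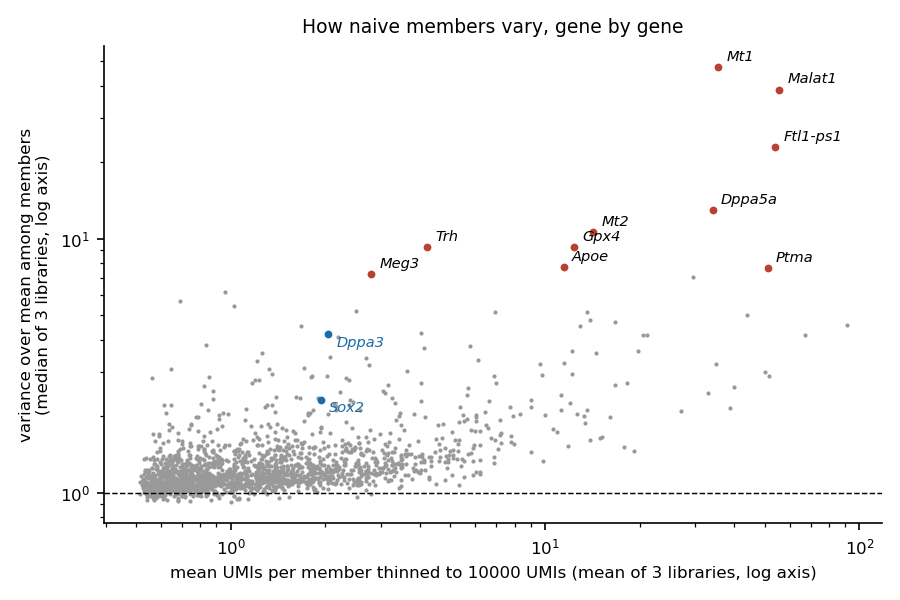
Variance over mean of UMIs among naive members (median of 3 libraries, log axis) against the mean UMIs per thinned member (mean of 3 libraries, log axis) for genes with at least 0.5 UMIs per member, leaving out mitochondrial, ribosomal protein and unnamed genes and genes of the rule, with the dashed line at 1, the 10 highest of those shown in red and Dppa3 and Sox2 in blue. Most genes lie close to 1, while Mt1, Malat1, Dppa5a, Trh and Meg3 stand far above it.

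Dppa5a and Meg3 were in the top 10 by this ranking. Dppa5a had Fano factors of 15.0, 13.0 and 10.2, with medians of 37, 36 and 25.5 UMIs. It went with Zfp42 across members (Spearman's rho 0.56, 0.56 and 0.53), as did Klf2 with Zfp42 (0.60, 0.53 and 0.56), but Zfp42 and Klf2 chose the members, so both pairs draw on values the rule used and are a description only. Trh was not seen in 43.3%, 29.7% and 25.0% of thinned members and reached 11, 12 and 13 UMIs at percentile 90. Its Fano factor was 10.5, 7.90 and 9.29, and its rho with Dppa5a was 0.09, 0.11 and 0.15. Meg3 was not seen in 36.1%, 48.2% and 50.9% of members (Fano factor 8.49, 7.25 and 4.97) and went with Rian of the same cluster (rho 0.66, 0.67 and 0.64). Dppa3 was likewise not seen in 45.9%, 41.9% and 49.1% of members and had Fano factors of 4.21, 3.79 and 7.14, against 2.28, 2.33 and 3.11 for Sox2. The spread thus took in members with none and members with many UMIs of the same gene in every library, for Trh, Meg3 and Dppa3 alike.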

How the data were processed

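Gene by barcode matrices of UMI counts were deposited by the authors for 3 single-cell libraries. Per the file headers, Cell Ranger 6.0.1 produced them from 10x 3′ libraries. The build is mm10 (per the submitters' processing notes). They hold 32285 genes as raw counts with no normalization. The members, classes and 31 gene lists (476 of 480 symbols measured) were chosen with earlier results of these data known. UMIs were summed per library and class, scaled with TMM factors and tested with edgeR 4.0.16 (R 4.3.3, filterByExpr, quasi-likelihood, library as a block, Benjamini-Hochberg adjustment over all genes tested). The fit was checked on simulated data. Fold changes are log2, naive minus other class, with SE. The libraries are 1 per type and the labels name no separate cultures. The p-values thus measure how far the difference between classes varies between these libraries, which may be technical, and types are compared with no test. Classes come from the same library, which is what pairs them. Intervals and limits for a count of 0 cover counting error only. No doublets were removed, and leaving out barcodes above percentile 95 of UMIs was an alternative. The other alternatives were plain library totals, DESeq2 1.42.0, no filter, each library left out, stricter limits, thinning, classes divided on a random portion of the UMIs and, added after seeing the data, leaving out shared barcodes.

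Named genes were the 12 largest rises and 12 largest falls against primed barcodes (5 and 5 against the other classes) among called genes with at least 20 CPM in the higher class and 1 direction in all 3 libraries, leaving out the rule's genes, mitochondrial, ribosomal and unnamed genes. To these came up to 6 called genes per list, the markers of the label, the 5 highest and 5 lowest ratios between types and the 10 highest Fano factors. Named outside this rule after their values were seen were Dppa4, Slc7a3, Sycp3, Etv4, Spred1, Klf5, Tfap2c, Fgfr1, Fgfr2 and Nr1h2, the genes past 1.5-fold between types, the 3 unnamed transcripts and Rpl29. Promoters are from RefSeq, GRCm38.p6. Some results are not reported here.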

Additional observations from a re-analysis of the deposited data

How the results depend on the processing

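Against primed barcodes the 837 higher and 741 lower genes became 351 and 254 with DESeq2, 267 and 184 after thinning each barcode to 10000 UMIs, and 558 and 451 when classes were divided on a random portion of the UMIs. With plain library totals 601 were higher and 1221 lower. Leaving out each library in turn gave 243 to 1165 higher and 155 to 1011 lower, with 448 and 303 without Type I and 243 and 155 without Type II. Without the library as a replicate block, which pairs the classes, 603 were higher and 570 lower. Against keratin-high barcodes the 3860 higher and 3782 lower genes became 2178 and 6108 with plain totals and 2292 and 2369 after thinning, and without the replicate block 3483 and 3510. Against Gata-positive barcodes every alternative gave counts within 1.5 times, and without the replicate block 4188 and 4313. Between types, 1.5-fold in place of 2-fold gave 2, 30 and 28 genes, and leaving out shared barcodes gave 18 for Type III over Type I and 18 for Type III over Type II. The naive share of deep barcodes moved to 16.9% in Type I and 16.5% in Type II with at least 300 CPM of Pou5f1, to 22.4% in Type II with the random portion, to 22.3% there without barcodes within 2 UMIs of the division, and to 48.6% in Type III without shared barcodes. Directions turned for few listed genes. Against primed barcodes these were Etv4 (0.20) and Spred1 (0.0082) after thinning, Egr1 (0.23) with DESeq2 and Eno1 (0.055) without shared barcodes. Against Gata-positive barcodes they were Ldha (-0.00897) with plain totals, Cox8a (0.069) without shared barcodes and Cdk1 (0.10) after thinning. Against keratin-high barcodes, with plain totals, they were Gapdh (-0.10), Uqcrh (-0.012), Ndufv2 (-0.022), Insig1 (-0.077), Tyms (-0.028), Slbp (-0.13), Gins2 (-0.058), Rrm2 (-0.035), Nusap1 (-0.00919) and Birc5 (-0.091). The cause was not tested. Type III gave 6 primed barcodes, which limits every comparison with them there. Without shared barcodes Type III kept 2 of 6 primed, 6 of 28 Gata-positive and 23 of 62 keratin-high barcodes. No paired analysis was possible between types because each has 1 library.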
